A study of Mus musculus with 10 samples.

Results

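Adenylate kinases and creatine kinases move energy-rich phosphate between nucleotides and creatine. Adenylate kinases convert a pair of ADP molecules into ATP and AMP and back, with separate isozymes in the cytosol and in mitochondria. Creatine kinases pass phosphate between ATP and creatine: the mitochondrial enzyme charges creatine where ATP leaves the mitochondrion, and the cytosolic enzyme returns the phosphate to ADP where ATP is used. Both systems are best known from muscle and brain, and activated T cells, which turn over ATP quickly, also express some of these enzymes.

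The genes described here were Ak1, Ak3, Ak4, Ckb and Ckmt1, taken by symbol from the deposited expression table, 5 of its 17493 genes. They were selected on their levels in these same libraries, with the values of the comparison of TMP269 with DMSO already known, so their differences between groups are given as a description without a test. Ak1 encodes the cytosolic adenylate kinase, Ak3 the GTP:AMP phosphotransferase of the mitochondrial matrix and Ak4 another matrix isozyme that is a known target of the hypoxia factor HIF-1. Ckb encodes the brain-type cytosolic creatine kinase and Ckmt1 the ubiquitous mitochondrial creatine kinase of the intermembrane space.

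RNA sequencing compared 2 libraries of mouse Th17 cells with TMP269 and 2 libraries with DMSO, the solvent control. TMP269 is a selective small-molecule inhibitor of class IIa histone deacetylases, the enzyme group that includes HDAC4 and HDAC7 named in the study's title. All libraries came from C57BL/6 splenic CD4 T cells that had been activated as naive cells on bound anti-CD3 and anti-CD28 with IL-6 (20 ng/mL) and TGF-beta (2.5 ng/mL) for 48 to 72 h, a culture model in which no cell was taken from an inflamed tissue. No source used here gives the dose, the length of exposure or the age of the mice, and the labels do not say whether replicates were separate animals or cultures, so the spread between them may be technical.

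The libraries held 20837231 and 23259102 reads with TMP269 and 25321455 and 20007042 reads with DMSO. Values are reads divided by a size factor for each library, called normalised reads below. DMSO replicate 2 stood apart in its reads of the ribosomal RNA gene Rn45s, at 2.20% of the library against 0.716% to 1.12% in the other 3 libraries. The 6 T cell markers summed to 40811 to 42480 normalised reads with TMP269 and to 37710 to 41528 with DMSO. The Th17 markers Il17a, Il17f, Ccr6, Il23r and Il1r1 were all present, summing to 6682 to 8504 with TMP269 and 15075 to 16847 with DMSO. Of these 5 markers 4 fell (limma adjusted p under 0.05), and Il23r was not called. The Il1r1 call was lost without DMSO replicate 2. The 6 B cell markers summed to 2154 to 2155 normalised reads with TMP269 and to 3962 to 3985 with DMSO, and 5 of the 6 fell (limma adjusted p under 0.05). The call of the B cell marker Cd79a was lost without TMP269 replicate 1. None of the 6 T cell markers was called. No CD8 and cytotoxic (4 of 5 tested), myeloid (3 of 6), megakaryocyte (1 of 5) or epithelial (3 of 5) marker was called. The low myeloid markers summed to 57.9 to 73.1 normalised reads with TMP269 and to 42.2 to 44.1 with DMSO. The CD8 and cytotoxic, megakaryocyte and epithelial sums overlapped between the groups. Among all tested genes, 27.5% were called, 12.8% higher and 14.7% lower. The erythroid and muscle markers present in the table were below the filter on low values, with no value above 13.3. In bulk RNA, fewer cells of a type and less RNA per cell cannot be told apart, and the part of B cells in the kinase values was not tested.

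The sequence around a start site is shown for each member with a match to any of the motifs named below. The windows run from 250 bases before to 50 bases after an annotated start and come from RefSeq (GRCm38.p6), in which all 5 genes were found, Ak1 and Ak4 with 4 windows each, Ckmt1 with 2, and Ak3 and Ckb with 1 each. The motifs, chosen after the sequences had been read, were ACGTG, the TATA box TATAAA and the MEF2 consensus. The last is the site of the transcription factors to which class IIa histone deacetylases bind. ACGTG is a form of the core of the HIF response element and also lies inside the E-box CACGTG. The other form of that core, GCGTG, was not searched, so a window without ACGTG may still hold it. Each of the motifs was searched on both strands, and a MEF2 match can overlap a TATA box. Capitals mark the matches, and each sequence reads in the direction of the gene.
Ak1, chr2:32625187-32625486, plus strand: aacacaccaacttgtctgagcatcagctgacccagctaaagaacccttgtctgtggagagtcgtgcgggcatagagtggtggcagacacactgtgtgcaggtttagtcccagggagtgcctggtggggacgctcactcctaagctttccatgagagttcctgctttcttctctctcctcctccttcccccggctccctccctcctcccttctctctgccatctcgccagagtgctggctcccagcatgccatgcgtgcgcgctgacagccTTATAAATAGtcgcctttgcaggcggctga
Ckmt1, chr2:121357526-121357825, plus strand: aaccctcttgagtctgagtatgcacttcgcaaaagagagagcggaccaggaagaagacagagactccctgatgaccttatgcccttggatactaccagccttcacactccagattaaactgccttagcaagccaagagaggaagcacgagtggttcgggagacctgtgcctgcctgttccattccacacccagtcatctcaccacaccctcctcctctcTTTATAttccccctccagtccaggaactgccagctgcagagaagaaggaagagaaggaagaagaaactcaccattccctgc
Ak4, chr4:101419453-101419752, plus strand: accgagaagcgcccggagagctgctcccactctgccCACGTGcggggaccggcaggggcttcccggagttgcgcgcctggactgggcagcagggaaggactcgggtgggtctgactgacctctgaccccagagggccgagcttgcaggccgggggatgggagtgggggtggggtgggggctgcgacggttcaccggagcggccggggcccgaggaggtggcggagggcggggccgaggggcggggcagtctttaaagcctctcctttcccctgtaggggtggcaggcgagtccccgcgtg
Ckb, chr12:111672289-111672588, minus strand: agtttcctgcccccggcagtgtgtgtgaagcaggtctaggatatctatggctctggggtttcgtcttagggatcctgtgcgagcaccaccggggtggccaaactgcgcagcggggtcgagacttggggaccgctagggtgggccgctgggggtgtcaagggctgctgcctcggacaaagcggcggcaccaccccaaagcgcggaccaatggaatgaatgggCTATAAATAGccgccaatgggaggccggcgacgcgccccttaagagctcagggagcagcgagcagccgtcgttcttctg

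In the Ak1 window shown, and in none of the other 3 Ak1 windows, the MEF2 match TTATAAATAG began 20 bases after the annotated start and held a TATA box. The Ckb window held the closely similar CTATAAATAG, which began 29 bases before the start, again with a TATA box inside it. A MEF2 match was present in 3.19% of all 32851 promoter windows and a TATA box in 13.6%. At least 1 window held a MEF2 match in 3.70% of all genes and a TATA box in 15.7%. Ckmt1 had a TATA box on the opposite strand 31 bases before its first start, none of the 3 motifs in its other window and no MEF2 match in either. Of the 4 Ak4 windows only the one shown held ACGTG, as part of CACGTG 214 bases before its start. ACGTG was found in 19.6% of all windows and in at least 1 window of 21.8% of all genes. A further Ak1 window, not shown, held ACGTG on the opposite strand 33 bases before its start, and the single Ak3 window held none of the 3 motifs. The deposited values are per gene and do not say which start was used. A match is a run of letters and was not measured as a bound site here. A link between any of these matches and the levels of the kinase genes was not tested.

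Ak1 had 544 and 629 normalised reads in the TMP269 libraries, against 99.0 and 90.5 in the DMSO libraries. Both TMP269 values lay far above both DMSO values, with the lower TMP269 library 5.49 times the higher DMSO library. The group means were 586 ± 60.2 with TMP269 and 94.7 ± 6.02 with DMSO (SD, n = 2 each), a log2 fold change of 2.61 ± 0.14 (SE), or 6.12-fold. All log2 fold changes here are TMP269 over DMSO on log2(normalised reads + 1), which slightly understates the change of low genes. Of 12535 genes that passed the filter on low values, 14 had a larger positive change than Ak1. The estimate stayed between 2.51 and 2.72 when any 1 of the 4 libraries was left out.

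Ckmt1, which charges creatine in the mitochondrial intermembrane space, had 161 and 174 normalised reads with TMP269 and 37.8 and 21.7 with DMSO. The groups did not overlap, and the DMSO libraries differed more from each other than the TMP269 libraries did. The DMSO values rested on few reads, 42 and 18, against 156 and 183 reads with TMP269. The means were 168 ± 8.89 with TMP269 and 29.8 ± 11.4 with DMSO (SD, n = 2 each). The log2 fold change was 2.50 ± 0.28 (SE), or 5.67-fold, with 19 tested genes changed more in the positive direction. It was 2.12 with DMSO replicate 2 left out and 2.89 with DMSO replicate 1 left out, so the size of the difference depended on which low DMSO library was kept while its direction did not.

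Ak4, the HIF-1-responsive matrix isozyme, was the member that was lower with TMP269. It had 1423 and 1548 normalised reads in the TMP269 libraries and 2788 and 3036 in the DMSO libraries. The groups did not overlap, the lower DMSO library being 1.80 times the higher TMP269 library. The mean was 1486 ± 88.3 with TMP269 and 2912 ± 175 with DMSO (SD, n = 2 each). The log2 fold change was -0.97 ± 0.085 (SE), so that Ak4 with TMP269 stood at 51.0% of its DMSO level. Among tested genes, 237 had a larger negative change.

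Ak3 and Ckb had nearly the same level in both groups. Ak3, the GTP-using matrix isozyme, was at 611 and 673 normalised reads with TMP269 and at 616 and 674 with DMSO. Its groups overlapped almost completely, with means of 642 ± 44.2 and 645 ± 40.9 (SD, n = 2 each) for TMP269 and DMSO. The log2 fold change of Ak3 was -0.0073 ± 0.10 (SE), and 0.097 when library totals were set equal. Ckb, the cytosolic creatine kinase, had 3067 and 2600.5 normalised reads with TMP269 and 3232 and 2680.03 with DMSO. Each group held 1 higher and 1 lower library, and the gap between replicates was larger than the gap between the means, 2834 ± 329.6 with TMP269 and 2956 ± 390.3 with DMSO (SD, n = 2 each). The log2 fold change of Ckb was -0.060 ± 0.11 (SE), and 0.045 with equal library totals, so no direction is given for Ak3 or Ckb. The groups did not overlap for 3 of the 5 genes, and the same held for 66.6% of all tested genes. All 5 passed the filter on low values.

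**Figure D1:**
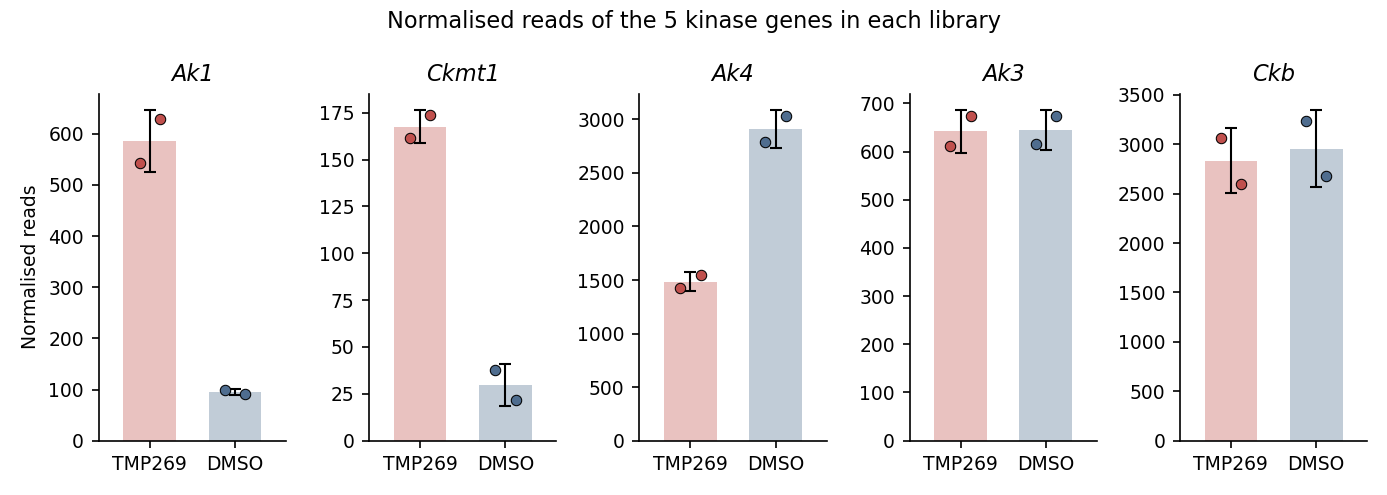
Normalised reads (vertical axis, a separate scale starting at 0 for each gene) of Ak1, Ckmt1, Ak4, Ak3 and Ckb, with points for the 2 libraries of each group and bars for the mean ± SD. Ak1 and Ckmt1 stood higher with TMP269 (means 586 and 168) than with DMSO (94.7 and 29.8), Ak4 stood lower (1486 with TMP269, 2912 with DMSO), and the points of Ak3 and Ckb overlapped.

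Shares of reads within a library do not depend on the scaling between libraries. They count reads and not molecules, since longer transcripts give more reads, so they are compared only for the same gene across libraries. Ak1 made up 18.0% and 19.0% of the summed reads of Ak1, Ak3, Ak4, Ak5, Ak6, Ak7 and Ak8 in the TMP269 libraries (95% Wilson intervals 16.6% to 19.4% and 17.7% to 20.3%). In the DMSO libraries its share was 2.42% and 2.02% (2.01% to 2.91% and 1.62% to 2.53%). The intervals cover counting error only. The share of Ak4 was 47.0% and 46.7% with TMP269 (45.2% to 48.9% and 45.0% to 48.3%) and 68.2% and 67.9% with DMSO (66.9% to 69.6% and 66.4% to 69.4%). Ak4 reads per Ak1 read were 2.62 and 2.46 with TMP269, against 28.2 and 33.6 with DMSO. This ratio of the HIF-responsive matrix isozyme to the cytosolic isozyme restates the opposite differences of the selected genes Ak4 and Ak1, and is no separate result. The summed level of these 7 genes was 3025 and 3317 normalised reads with TMP269 and 4087 and 4471 with DMSO.

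Among the 4 creatine kinase genes, Ckmt1 took 4.99% and 6.26% of the reads with TMP269 (95% Wilson intervals 4.28% to 5.81% and 5.44% to 7.20%). With DMSO it took 1.16% and 0.804% (0.856% to 1.56% and 0.509% to 1.27%). Nearly all other reads were from Ckb, at 94.3% ± 0.856 with TMP269 and 99.0% ± 0.287 with DMSO (SD, n = 2 each). The summed level of the 4 genes was 3231 and 2775 normalised reads with TMP269 and 3272 and 2702 with DMSO, so the total overlapped between the groups while its mitochondrial part did not.

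**Figure D2:**
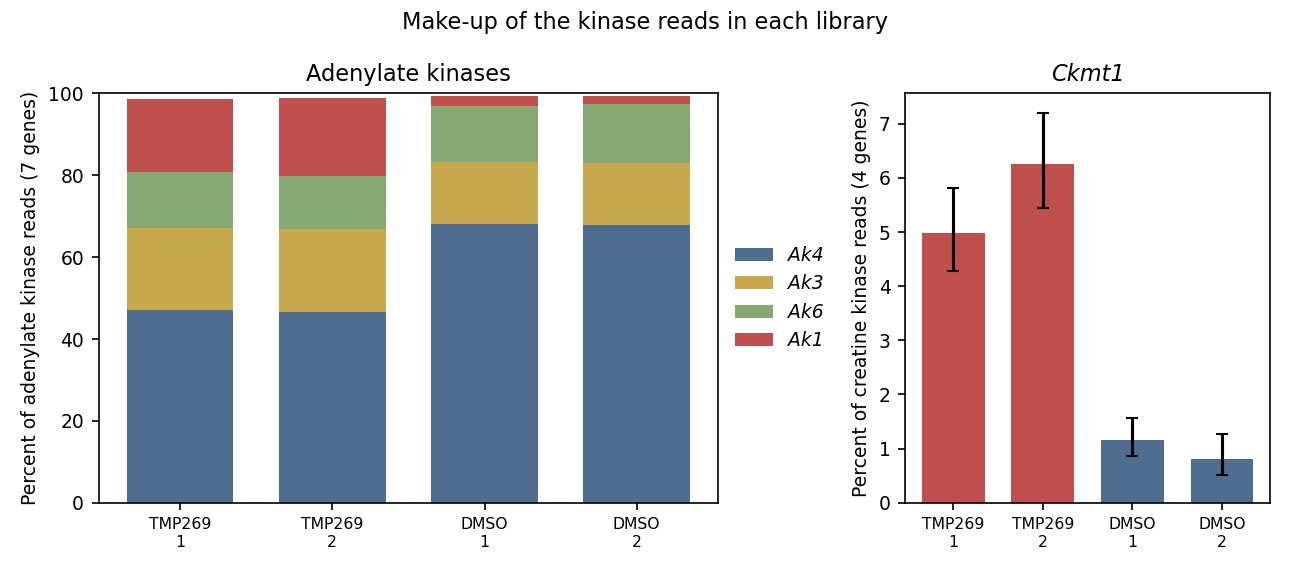
Left, the percent of the reads of 7 adenylate kinase genes taken by Ak4, Ak3, Ak6 and Ak1 in each library; the small rest is Ak5, Ak7 and Ak8. Right, the percent of the reads of 4 creatine kinase genes taken by Ckmt1, with 95% Wilson intervals; both TMP269 libraries (4.99% and 6.26%) stood above both DMSO libraries (1.16% and 0.804%).

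The genes that supply creatine moved in opposite directions. Slc6a8, the plasma membrane creatine transporter, had 246 and 249.8 normalised reads with TMP269 and 121 and 98.9 with DMSO, and rose 2.26-fold (difference on the log2 scale 1.18 ± 0.16 SE, adjusted p = 0.00178 by limma). Gatm, the amidinotransferase of the first step of creatine synthesis, had 608 and 585 normalised reads with TMP269 and 1262 and 1347 with DMSO, and fell to 45.8% of its DMSO level (difference on the log2 scale -1.13 ± 0.090 SE, adjusted p = 1.65e-04 by limma). Both calls held under every alternative and without any 1 of the 4 libraries. These were the 2 tested genes of a list of 5, of which 1 rose and 1 fell. Across all 12535 tested genes, 27.5% were called, 12.8% higher and 14.7% lower, at a Benjamini-Hochberg adjusted p under 0.05. Gamt, the methyltransferase that completes creatine synthesis, was too low to be tested, with means of 3.92 normalised reads for TMP269 and 10.1 for DMSO. The muscle-type genes Ckm and Ckmt2 were at or near 0, with no more than 3 reads in any library.

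Gatm reads per Slc6a8 read were 2.47 and 2.34 in the TMP269 libraries and 10.5 and 13.6 in the DMSO libraries. The ratio of the synthesis gene to the uptake gene was thus lower in both TMP269 libraries, whatever the scaling. Ckmt1, which uses creatine, and Slc6a8, which imports it, were both higher with TMP269, while the cytosolic Ckb had overlapping values.

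Of the other adenylate kinase genes Ak5, Ak6, Ak7, Ak8 and Ak9, 4 of 5 had a row in the table, Ak9 being not analysed here. Of these, 2 were tested, of which 0 rose and 1 fell, beside 12.8% higher and 14.7% lower among all tested genes. Ak6, a nuclear isozyme whose gene overlaps Taf9, had 410 and 429 normalised reads with TMP269 and 558 and 646 with DMSO. It fell to 69.9% of its DMSO level (log2 fold change -0.52 ± 0.11 SE, limma adjusted p = 0.0116), a call that was lost without DMSO replicate 2 (adjusted p = 0.0712). Reads of Ak6 and Taf9 may have been split or dropped in counting. Ak7, an isozyme of motile cilia, was low, at 36.2 and 32.3 normalised reads with TMP269 and 18.0 and 22.9 with DMSO (limma adjusted p = 0.117). Ak5, known from brain, and Ak8, known from cilia, had at most 6 and 2 reads in a library and were not tested.

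**Figure D3:**
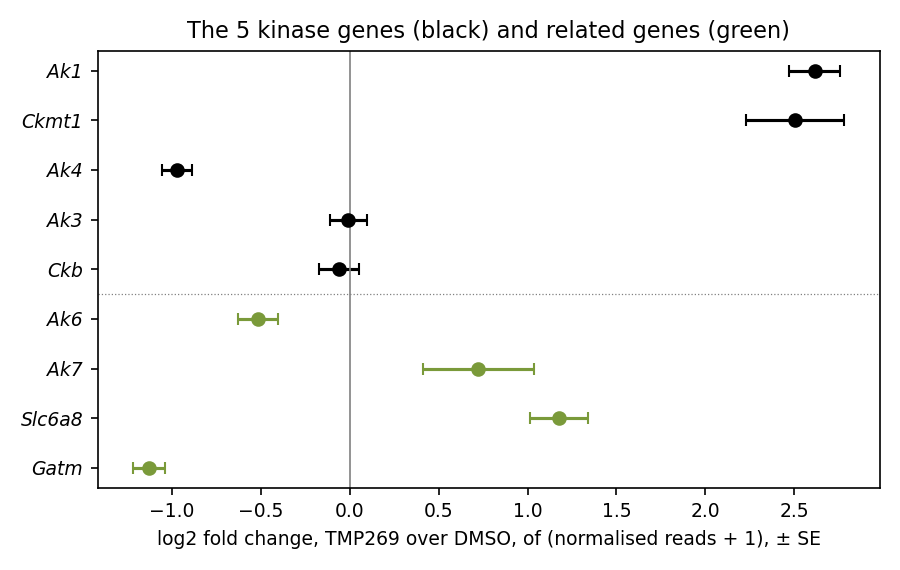
Log2 fold change of TMP269 over DMSO on log2(normalised reads + 1), with SE from limma, for the 5 kinase genes (black) and the tested genes of the other adenylate kinases and of creatine supply (green). Ak1 (2.61), Ckmt1 (2.50) and the creatine transporter gene Slc6a8 (1.18) lie to the right of 0, and Ak4 (-0.97) and Gatm (-1.13) to the left.

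Of 11 tested genes for other nucleotide kinases, 0 rose and 3 fell, a share of called genes close to the 27.5% called among all tested genes, with a median log2 fold change of -0.32, beside -0.0037 for all tested genes. Guk1, the guanylate kinase, had 711 and 747 normalised reads with TMP269 and 1017 and 1100.0 with DMSO (log2 fold change -0.54 ± 0.092 SE, limma adjusted p = 0.00417). The nucleoside diphosphate kinase genes Nme2 and Nme1 had log2 fold changes of -0.46 ± 0.12 and -0.37 ± 0.10 (SE, limma adjusted p = 0.0240 and 0.0283). These neighbouring genes are near-identical in parts of their sequence, so reads may have been split between them. Both calls were lost without TMP269 replicate 1 (adjusted p = 0.176 for Nme2 and 0.151 for Nme1), without DMSO replicate 2 (0.0926 and 0.134) and with equal library totals (0.0506 and 0.0612). The count of called genes in the list was 1 without TMP269 replicate 1, 6 without TMP269 replicate 2, 5 without DMSO replicate 1 and 1 without DMSO replicate 2. Nme1 is named although the rule for named genes did not reach it.

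Genes for the exchange of ATP, ADP and phosphate across the mitochondrial membranes, where the mitochondrial creatine kinase works, also included several that fell. Of 9 tested genes, 0 rose and 5 fell, beside 12.8% higher and 14.7% lower among all tested genes. The median log2 fold change of the list was -0.32. Vdac1, an outer membrane porin, had 5690 and 5801 normalised reads with TMP269, against 10215 and 10497 with DMSO. Its log2 fold change was -0.85 ± 0.077 (SE, limma adjusted p = 3.15e-04). Slc25a5, an ADP/ATP carrier of the inner membrane, had 14151 and 14896 normalised reads with TMP269 and 19121 and 21715 with DMSO. Its log2 fold change was -0.49 ± 0.099 (SE, limma adjusted p = 0.00806, but 0.0502 without TMP269 replicate 1). The other 3 genes called lower were Vdac2, Vdac3 and Slc25a4, and the 4 not called were Slc25a3, Slc25a23, Slc25a24 and Slc25a25. The Slc25a4 call was lost with equal library totals (limma adjusted p = 0.0797) and with no filter on low values (0.0522). Each of the calls of Vdac2, Vdac3 and Slc25a4 was lost when some single library was left out. Leaving out TMP269 replicate 1 gave a count of 2, and leaving out DMSO replicate 2 a count of 3. Several of these genes are known to have processed pseudogenes, which the counting could have mixed in.

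AMP is the product of adenylate kinase that activates AMPK, a sensor of low energy. Of 10 tested genes for AMP deaminases, AMP nucleotidases, AMPK subunits and the upstream kinase Stk11, 0 were called by limma, edgeR or DESeq2. By limma, 27.5% of all tested genes were called. In the list, 0 had an unadjusted limma p under 0.05. The median log2 fold change was -4.1e-05. Prkaa1, a catalytic subunit gene named after its values were seen, averaged 1436 ± 123 normalised reads with TMP269 and 1494 ± 151 with DMSO (SD, n = 2 each).

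As Ak4 is a HIF-1 target, other targets of HIF-1 were set beside it. Of 12 tested, 0 rose and 10 fell, with a median log2 fold change of -0.63, and all 12 had a negative change. Among all tested genes, 14.7% were called lower. Glycolysis and hypoxia genes were already known to be lower in these libraries when the list was made, so the count is no independent evidence on Ak4. Ero1l, an oxidase of the endoplasmic reticulum, averaged 6375 ± 40.1 normalised reads with TMP269 and 10837 ± 320.5 with DMSO (SD, n = 2 each, limma adjusted p = 5.13e-04). Bnip3, a mitophagy receptor, averaged 3033 ± 482 with TMP269 and 6076 ± 55.5 with DMSO (SD, n = 2 each, limma adjusted p = 5.76e-04). On the log2 scale Bnip3 (-1.01) was lower than Ak4 (-0.97) and Ero1l (-0.77) changed less. No test of a difference between these genes was made.

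**Figure D4:**
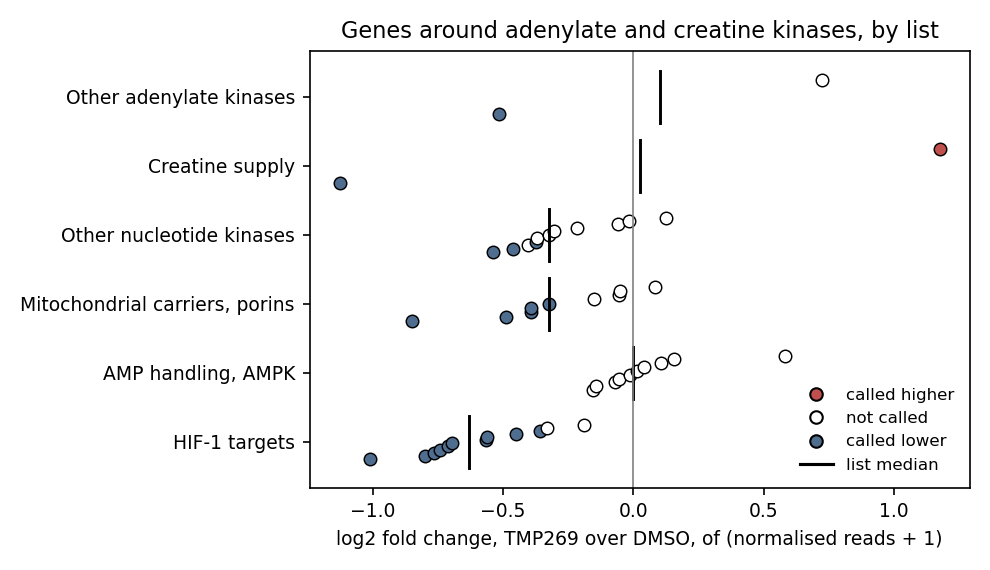
Log2 fold change of TMP269 over DMSO on log2(normalised reads + 1) for each tested gene of 6 lists, filled where called at a limma adjusted p under 0.05, with the list median as a vertical line. The HIF-1 targets all lie to the left of 0 (median -0.63), the AMP and AMPK genes lie around 0, and Slc6a8 is the only gene called higher in these lists.

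The nearest genes with a row in the table were taken on either side of each kinase gene, by the order of GRCm38. Of these 10 genes 7 were tested, of which 2 rose and 2 fell, beside 12.8% higher and 14.7% lower among all tested genes. Eng, which encodes the TGF-beta co-receptor endoglin and follows Ak1 on the chromosome, had 917 and 839.6 normalised reads with TMP269 and 379.7 and 279.8 with DMSO. Eng rose 2.69-fold (log2 fold change 1.43 ± 0.15 SE, limma adjusted p = 5.17e-04). St6galnac6, a sialyltransferase gene on the other side of Ak1, fell by 0.39 ± 0.13 on the log2 scale (SE, adjusted p = 0.0495 by limma), a call lost with edgeR (0.0615), with DESeq2 (0.0780), with equal library totals (0.180), with no filter on low values (0.0673) and without TMP269 replicate 2 (0.267) or DMSO replicate 1 (0.169). Ak1 therefore lay between a gene that rose and a gene at the edge of a call in the opposite direction.

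Around Ckb, the kinase gene Mark3 rose (log2 fold change 0.30 ± 0.084 SE, limma adjusted p = 0.0288) and the tRNA methyltransferase gene Trmt61a fell (-0.41 ± 0.11 SE, 0.0262). Both calls were lost without DMSO replicate 2 (adjusted p = 0.134 for Mark3 and 0.133 for Trmt61a) or TMP269 replicate 2 (0.0687 and 0.130), Mark3 also without TMP269 replicate 1 (0.155), and Trmt61a with equal library totals (0.0798). The neighbours of Ckmt1, the inositol pyrophosphate kinase gene Ppip5k1 (log2 fold change 0.30 ± 0.13 SE, limma adjusted p = 0.119, but 0.0207 without DMSO replicate 1) and the sperm ion channel gene Catsper2 (0.47 ± 0.37 SE, 0.381), were not called. Dnajc6, a chaperone gene after Ak4, was not called either (0.59 ± 0.41 SE, limma adjusted p = 0.317). The gene models 0610043K17Rik before Ak4 and 4430402I18Rik and Gm9895 around Ak3 had at most 8 reads in a library.

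Overlapping genes can share reads, since no source used here gives the strand setting. Strc, which overlaps Ckmt1 and encodes a protein of inner ear hair bundles, had at most 2 reads in any library. Cdc37l1, a chaperone gene that overlaps Ak3, averaged 706 ± 11.7 normalised reads with TMP269 and 673 ± 67.8 with DMSO (SD, n = 2 each, limma adjusted p = 0.639). RefSeq lists the pseudogenes Ak3l2-ps, Ckb-ps1 and Ckb-ps2, none with a row in the table. Whether reads from such copies were counted with the kinase genes cannot be seen here. Older symbols are a further hazard, since Ak4 was once called Ak3. The table held separate rows for both and none for the older symbol Ak3l1.

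The genes whose profile over the 4 libraries was most like each kinase were found by the Euclidean distance of log2(normalised reads + 1), each gene centred on its own mean, among 11690 named genes. The measure uses the same 4 values that define the groups, so likeness over so few libraries describes little beyond a similar size of change. Nearest to Ak1 were the transcription factor gene Grhl3 (distance 0.22), the protease inhibitor gene Serpine2 (0.34) and the interferon-lambda receptor gene Ifnlr1 (0.36). Nearest to Ckmt1 were Mmrn2 (0.096), Slc2a4 (0.10), the insulin-responsive glucose transporter gene, and the sulfatase gene Sulf2 (0.17). Grhl3, Ifnlr1 and Mmrn2 were below 10 normalised reads in both DMSO libraries, and Slc2a4 in 1 of them. These genes passed the filter on low values only through the TMP269 libraries, so part of their likeness to Ak1 and Ckmt1 is built in. Slc2a4 averaged 52.5 ± 0.336 normalised reads with TMP269 and 8.86 ± 4.01 with DMSO (SD, n = 2 each). Its DMSO values rested on 13 and 5 reads, and those of Mmrn2 on 3 and 1. The wide gap between the DMSO libraries that both share with Ckmt1 thus rested on few reads. Nearest to Ak4 were the glycosyltransferase gene B3gnt5 (0.046), the serine synthesis gene Psat1 (0.071) and the kinase gene Stk39 (0.081). Psat1 averaged 3486 ± 198 normalised reads with TMP269 and 6527 ± 500.4 with DMSO (SD, n = 2 each). Nearest to Ak3 were Cnep1r1, Paip2b and Igsf9 (0.013 to 0.020), and nearest to Ckb were Arhgap20 and Atp1b2, tied with the same reads in each library, and Hip1r (0.033 to 0.038).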

How the data were processed

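RNA from Th17 cells was poly(A)-selected and sequenced, per the labels' protocols. The deposited table gave a signal per gene and library, read counts divided by a size factor, as its values show: multiplying by 0.967 and 1.05 (TMP269 replicates 1 and 2) and 1.11 and 0.829 (DMSO replicates 1 and 2) made 100% of values whole within a relative tolerance of 1e-06. The submitters' processing notes name DESeq2, HTSeq, TopHat2 2.1.0, Bowtie2, CASAVA 1.4 and the build mm9, without a role for any. No source used here gives the annotation or the strand setting. Control columns are named WT and were matched to DMSO through the sample descriptions. The 6 chromatin libraries were not analysed here, and 2 genes of the lists are not reported here.

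Genes that reached a value of 10 in 2 or more libraries were tested with limma 3.58.1 (R 4.3.3, trended empirical Bayes, 6.84 prior degrees of freedom) on log2(value + 1), two-sided, with Benjamini-Hochberg adjustment over 12535 genes and a threshold of 0.05. Since an exact test of 2 against 2 libraries cannot pass this threshold, p-values rest on the spread shared across genes. The test was tried on simulated data. The members and lists were chosen with earlier results of these data known. Named genes were the members, the other adenylate kinases and creatine genes, up to 2 called genes per direction in other lists by smallest p, the neighbours, and the 3 nearest profiles. Alternatives were edgeR 4.0.16 and DESeq2 1.42.0 on recovered reads, equal totals, pseudocounts of 0.5 and 5, no filter, a filter at 50, the replicate number as a block, and each library left out.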

Additional observations from a re-analysis of the deposited data

How the results depend on the processing

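Ak1, Ckmt1 and Ak4 kept their direction under every alternative run. With equal library totals, which moved the median of all tested genes to 0.10 on the log2 scale, Ak4 was at -0.87 and Ak3 at 0.097. The lowest and highest log2 fold changes with 1 library left out were 2.51 and 2.72 for Ak1, 2.12 and 2.89 for Ckmt1, -1.03 and -0.91 for Ak4, -0.078 and 0.063 for Ak3 and -0.19 and 0.075 for Ckb. Leaving out 1 library moved the calls to between 2078 and 3675 of all genes, 0 and 1 of the other adenylate kinases, 1 and 6 of the other nucleotide kinases, 2 and 5 of the mitochondrial carriers and porins, 7 and 10 of the HIF-1 targets, and 1 and 4 of the neighbours. Equal totals gave 1 nucleotide kinase and 2 neighbours, with 8 of 11 nucleotide kinases and 6 of 9 carriers and porins negative. It made 2145 of all calls higher and 1042 lower, against 1602 and 1846 with the authors' size factors. A filter at 50 gave 5 nucleotide kinases, and no filter gave 1 AMP or AMPK gene.

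Same-numbered libraries deviated together (r = 0.37 across 12535 genes, which are not independent replicates), but the labels give no shared source. With the replicate number as a block, the calls were 6360 of all genes, 8 nucleotide kinases, 5 neighbours and 1 AMP or AMPK gene. Of the genes named with a test, Ppip5k1, Slc25a3 and Il23r were then also called (limma adjusted p = 0.00609, 0.0400 and 0.00503). The block changed no other call among them. Of the cell type markers counted above without a name, it also called Cd3g, Cd4, Cd28, Prf1, Klrd1, Itga2b and Cd79b. With 2 libraries per group, DMSO counts of 42 and 18 reads limit the precision for Ckmt1. The cause of these differences was not tested.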
